A study of Sus scrofa with 6 samples.

Results

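Kinesins are motor proteins that step along microtubules with energy from ATP, and they divide broadly into motors that carry cargo through the cell and motors that build and work the mitotic spindle. Cargo motors such as kinesin-1 are made of heavy chains that walk and light chains that bind the load, whereas spindle motors are made mainly around cell division and their transcripts come and go with the cell cycle. In the Sertoli cell, the somatic cell that surrounds and feeds the germ cells of the testis, microtubules run along the length of the cell and motors move vesicles and developing spermatids on them. Immature Sertoli cells still divide, so both classes of motor can be measured in them.

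The kinesin genes were taken from the deposited table by name. Every gene whose symbol is KIF followed by a digit was included, together with the kinesin light chain genes KLC1, KLC2 and KLC4, where the mean over the 6 libraries was at least 0.5 FPKM (fragments corrected for gene length and for library depth). Of 20731 genes in the table, 38 had such a name and 34 reached that mean, 31 of them kinesin genes and 3 of them light chains. Of the 34, 11 were set apart as mitotic kinesins (KIF2C, KIF4A, KIF11, KIF14, KIF15, KIF18A, KIF18B, KIF20A, KIF20B, KIF22 and KIF23) and 23 were the others, KIF1A among them. Members were thus selected on their name and their mean FPKM, and KIF1A and the split between mitotic and other motors were put forward with the difference between MT and Control already known, so these differences are given as descriptions. The lowest member was KIF17, a kinesin-2 motor, at a mean of 1.03 FPKM, and the highest gene left out was KIF26A at 0.217 FPKM. The other genes left out were KIF5A, KIF5C and KIF19, at means of 0.101, 0.0103 and 0.0467 FPKM.

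The libraries came from porcine immature testicular Sertoli cells, 3 labelled Control and 3 labelled MT, and the MT cells had received 10 nM melatonin, the pineal hormone, for 36 h. What the Control cells received is not stated, and neither is whether replicates were separate cultures or animals, so the spread between libraries may be technical. The library totals lay between 19579279 and 21500665 reads, and the members rested on 62 to 6525 reads per library, with a median of 973.5. Of 12 Sertoli cell markers, 9 were matched and 6 of these reached 0.5 FPKM, with WT1 at 10.0 to 12.8 and AMH at 11.3 to 15.6 FPKM, while INHA, DHH and TF had means of 0.0293, 0.0393 and 0.282 FPKM. The summed Sertoli markers were at 2353.5 to 3191.6 FPKM in Control and 2748.4 to 3292.8 in MT, most of it VIM, which is not specific to Sertoli cells. Markers of other cells of the testis overlapped between the groups in the summed level of each list, with myoid markers at 160.3 to 264.8 FPKM in Control and 161.7 to 194.2 in MT, nearly all of it TAGLN, since ACTA2 and MYH11 had means of 0.12 and 0.0144. Leydig cell markers (3 of 5 matched) summed to 3.74 to 4.87 FPKM over the 6 libraries, macrophage markers (4 of 5) to 9.38 to 13.3, germ cell markers (2 of 5, with DDX4 near 0) to 0.668 to 1.35 and endothelial markers (2 of 3) to 0.152 to 0.322. The macrophage marker CD68 was higher in every MT library than in every Control, at 4.14, 3.18 and 3.87 FPKM in the Controls against 5.30, 4.50 and 4.66 in MT. CD14, the highest marker of that list, overlapped between the groups, at 6.73, 6.21 and 8.3 FPKM in the Controls against 7.94, 7.08 and 7.28 in MT. CSF1R and C1QA were near 0 at means of 0.0396 and 0.00704. The part of CD68-bearing cells in the results was not tested. In bulk RNA, fewer cells of a type and less RNA per cell cannot be told apart, which here bears on every spindle motor, since their transcripts are carried by dividing cells.

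Control 3 stood apart from the other libraries. Its correlation across the 11855 tested genes was 0.945 with Control 1 and 0.946 with Control 2, which had 0.993 with each other, and it was 0.977 with MT 1. Many kinesins departed from the other Controls in that library, by log2 differences from -1.34 (KIF20B) to 0.58 (KLC2) on the log2(FPKM + 1) scale. The differences of the members are therefore given with all 6 libraries and without Control 3. Whatever sets Control 3 apart was not tested.

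All 11 mitotic kinesins had a lower mean in MT than in Control, while 19 of the 23 other members had a higher one on the log2(FPKM + 1) scale. However, KIF18A and 15 of the 23 changed sign under some of the 18 alternative settings, counting KIF17, which only came down to 0.00. The median log2 difference, MT minus Control, was -0.31 for the mitotic kinesins and 0.05 for the other members, beside 0.02 for all tested genes, of which 44.1% lay below 0. KIF1A, a kinesin-3 motor best known for carrying synaptic vesicle precursors in neurons, stood alone in size at 1.13 (SE 0.12). None of the other 33 members had a difference over 0.5 in either direction with 6 libraries.

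**Figure D1:**
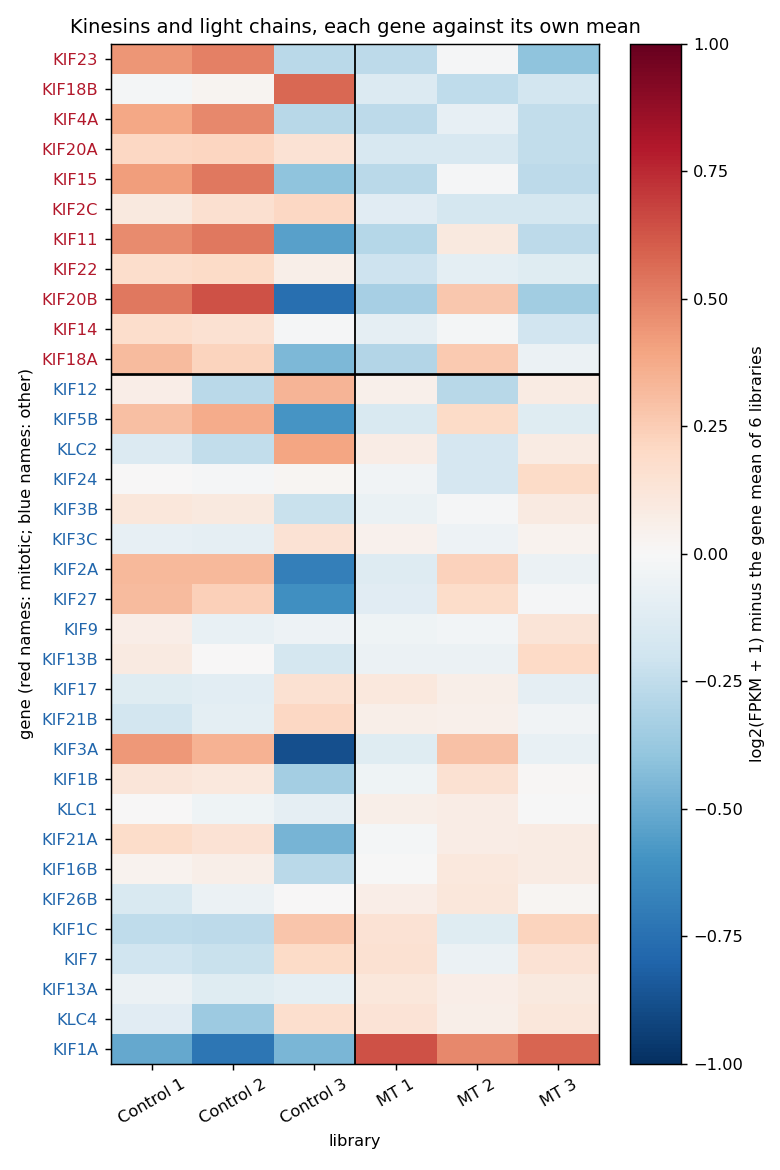
Each row is a kinesin or light chain gene and each column a library, and the colour gives log2(FPKM + 1) minus the mean of that gene over the 6 libraries. Most mitotic kinesins (red names) are high in Control 1 and Control 2 and low in the MT libraries, Control 3 is low for KIF20B (-1.34 against Control 1 and 2) and high for KIF18B (0.57), and KIF1A is the bottom row.

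In limma (Benjamini-Hochberg over the 11855 genes), 0 of the 34 members and 0 of all genes (0%) passed an adjusted p of 0.05 with 6 libraries, and 571 genes had an unadjusted p under 0.05. The voom version of limma on read numbers worked out from the FPKM steps also called 0, with 545 genes under an unadjusted p of 0.05. Without Control 3, 6 mitotic kinesins were called lower in MT, where 5.01% of all genes were, and KIF1A was called higher, where 3.09% of all genes were. The remaining 5 mitotic kinesins and 22 other members were not called in that fit. Since the members were put forward with this contrast known, nothing is read from these counts.

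The values of the MT libraries lay wholly below those of Control for 5 mitotic kinesins, KIF2C, KIF14, KIF18B, KIF20A and KIF22, where 4.92% of all tested genes did so. For 3 other members, KIF1A, KIF13A and KIF26B, the MT values lay wholly above, where 6.39% of all tested genes did so. With Control 3 left out, 10 of the 11 mitotic kinesins lay wholly below, against 29.5% of all genes, and the exception was KIF18A. In the other members, 6 then lay wholly below and 9 wholly above, against 29.5% and 25.1% of all genes.

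**Figure D2:**
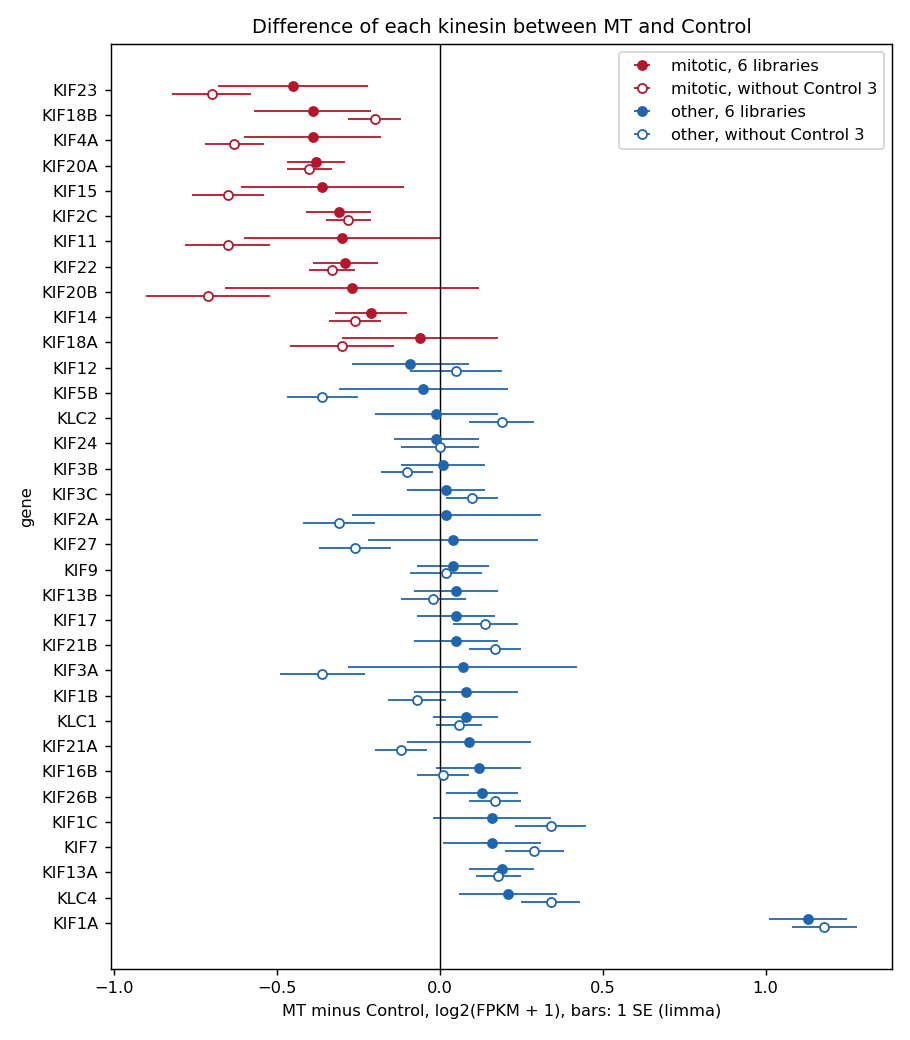
The horizontal axis gives the difference MT minus Control in log2(FPKM + 1) for each of the 34 genes, with bars of 1 SE from limma, filled for all 6 libraries and open without Control 3. The 11 mitotic kinesins lie left of 0 in both fits, from -0.45 to -0.06 with 6 libraries, and KIF1A lies far to the right at 1.13.

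Of the mitotic kinesins, the motors of the central spindle and of cytokinesis include the one with the highest mean, KIF20A at 28.2 FPKM. KIF20A, a kinesin-6 that brings the chromosomal passenger complex to the midzone, stood at 32.4, 32.6 and 30.9 FPKM in Control 1 to 3, against 24.9, 24.9 and 23.4 in MT 1 to 3. The groups did not overlap, and each was tight, averaging 32.0 ± 0.94 over the Controls and 24.4 ± 0.89 over MT (± SD, n = 3 each), with a log2 difference of -0.38 (SE 0.09) and of -0.40 (SE 0.07) without Control 3. The gene (ENSSSCG00000014326) lies on chromosome 2 from 140202316 to 140213144 by the RefSeq gene models for Sscrofa11.1, the build in the submitters' notes. KIF23, the kinesin-6 that forms centralspindlin with RACGAP1 and bundles midzone microtubules, was at 24.5, 25.6 and 14.6 FPKM in the Controls, against 14.7, 17.6 and 13.2 in MT. Control 3 lay within the MT range and the other Controls above it, so that the difference was -0.45 (SE 0.23) with 6 libraries and -0.70 (SE 0.12) without Control 3. KIF20B, the third kinesin-6, which acts late in cytokinesis, was at 6.94, 7.57 and 2.27 FPKM in the Controls, against 3.40, 5.67 and 3.35 in MT. Control 3 was the lowest of the 6 libraries for this gene. The difference of KIF20B was -0.27 (SE 0.39) with 6 libraries and -0.71 (SE 0.19) without Control 3. It was near 0 without Control 1 (-0.07) or Control 2 (-0.02). The ratio of KIF20B to KIF20A overlapped between the groups, at 0.0733 to 0.232 in Control and 0.137 to 0.227 in MT. KIF14, a kinesin-3 that works with the citron kinase CIT in abscission, was at 9.26, 9.11 and 8.01 FPKM in the Controls, against 7.54, 7.96 and 6.96 in MT. The groups were apart by a narrow gap, between 7.96 in MT 2 and 8.01 in Control 3, and the difference was -0.21 (SE 0.11), or -0.26 (SE 0.08) without Control 3. KIF4A, a chromosome-bound kinesin-4 that limits the length of midzone microtubules, was at 11.02, 11.85 and 6.60 FPKM in the Controls, against 6.67, 7.68 and 6.78 in MT. Its difference was -0.39 (SE 0.21) with 6 libraries and -0.63 (SE 0.09) without Control 3, which was the lowest library.

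The motors that push the spindle poles apart varied widely among the Controls. KIF11, the kinesin-5 that slides antiparallel microtubules and makes the spindle bipolar, was at 13.5, 14.0 and 6.14 FPKM in the Controls, against 7.55, 10.1 and 7.69 in MT. KIF15, a kinesin-12 that can take over part of that work, was at 8.16, 8.89 and 4.20 FPKM in the Controls, against 4.70, 5.82 and 4.71 in MT. Both had Control 3 below every MT library and Control 1 and 2 above every MT library. The log2 differences were -0.30 (SE 0.30) and -0.36 (SE 0.25) with 6 libraries, and -0.65 (SE 0.13) and -0.65 (SE 0.11) without Control 3. They shrank to -0.14 and -0.24 without Control 1, and to -0.12 and -0.19 without Control 2.

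Among the motors that move chromosomes or trim microtubule ends, KIF22 and KIF2C had Controls that lay close together. KIF22, a kinesin-10 that pushes chromosome arms away from the poles, was at 25.1, 25.4 and 23.1 FPKM in the Controls, against 19.0, 20.6 and 20.2 in MT, a difference of -0.29 (SE 0.10), or -0.33 (SE 0.07) without Control 3. KIF2C, the kinesin-13 that takes microtubules apart at centromeres and so corrects wrong attachments, was at 13.8, 14.5 and 15.0 FPKM in the Controls, against 11.82, 11.28 and 11.30 in MT, a difference of -0.31 (SE 0.10), or -0.28 (SE 0.07) without Control 3. Neither gene had an overlap between the groups, and Control 3 lay close to its own group in both. KIF18B, a kinesin-8 that shortens astral microtubules, was at 6.98, 7.26 and 11.09 FPKM in the Controls, against 6.37, 5.79 and 6.12 in MT. Here Control 3 was the highest library, so that the difference of -0.39 (SE 0.18) moved to -0.20 (SE 0.08) in its absence. KIF18A, the kinesin-8 that holds chromosomes at the spindle middle, was at 2.01, 1.83 and 0.77 FPKM in the Controls, against 0.98, 1.91 and 1.33 in MT. Its groups overlapped with and without Control 3, and its difference of -0.06 (SE 0.24) turned to 0.09, 0.04 and 0.08 when Control 1, Control 2 or MT 1 was left out, and to -0.30 when Control 3 was.

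The mitotic kinesins divided into 5 whose groups were apart with 6 libraries and 6 whose groups overlapped. Since a low value in Control 3 itself makes the groups overlap, the values of Control 3 in the 2 sets are a description. In the 5 with separate groups, Control 3 differed from the mean of Control 1 and 2 by -0.18 to 0.57 in log2, and in the other 6 (KIF4A, KIF11, KIF15, KIF18A, KIF20B and KIF23) by -1.34 to -0.71. The same division followed the length of the gene model as worked out from the FPKM steps, with 2695 to 4599 bases in the first set and 4715 to 6891 in the second. Across the 11 genes the correlation of log2 length with the deviation of Control 3 was -0.76 (Spearman -0.73), and it was -0.22 (Spearman -0.23) across the 23 other members and -0.08 (Spearman -0.19) across all tested genes. These are correlations across genes of the same libraries, given as a description. Long models of the other members lay on both sides of the other Controls in Control 3. KLC2 (7431 bases) and KIF21B (9473 bases) were at 0.58 and 0.35, and KIF3A (7474 bases) and KIF16B (16823 bases) at -1.27 and -0.32.

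**Figure D3:**
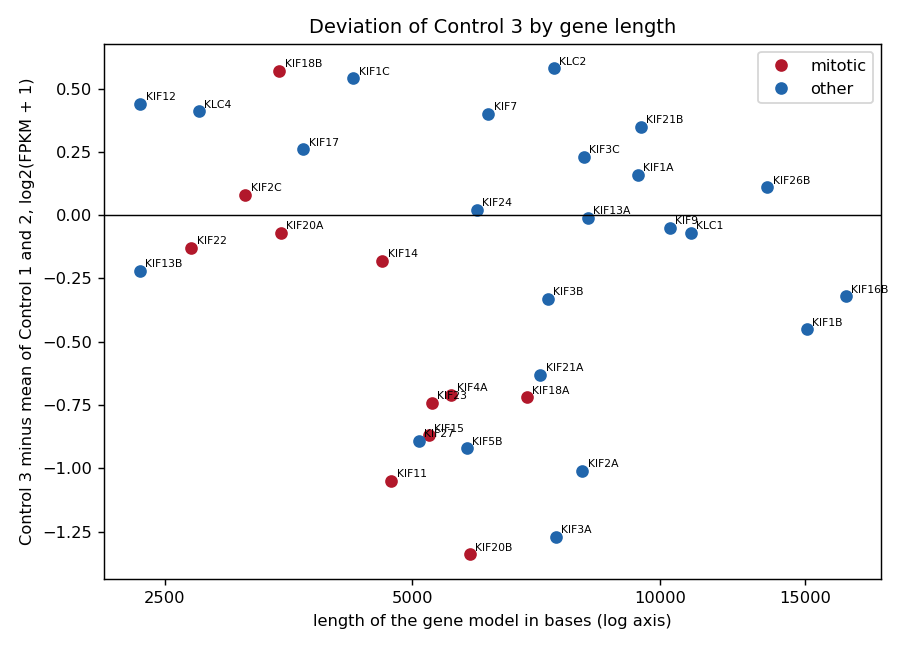
The horizontal axis gives the length of each gene model in bases on a log scale and the vertical axis the log2(FPKM + 1) of Control 3 minus the mean of Control 1 and Control 2. The 6 mitotic kinesins (red) of 4715 bases or longer lie at -0.71 or lower, while the other motors (blue) run from -1.27 for KIF3A (7474 bases) to 0.58 for KLC2 (7431 bases).

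The MT libraries showed the opposite leaning in MT 2. Members that were low in Control 3 were high in MT 2 against MT 1 and MT 3, with a correlation of -0.93 across the 11 mitotic kinesins, -0.85 across the 23 others and -0.59 across all 11855 tested genes. The deviations come from different libraries and each uses libraries of 1 group only. For 9 of the 11 mitotic kinesins MT 2 was above both other MT libraries, beside 4556 of all 11855 tested genes. Relative to its mean over the 6 libraries, the median mitotic kinesin lay at 0.31, 0.22 and -0.27 in Control 1 to 3 and at -0.26, -0.02 and -0.24 in MT 1 to 3. Control 3 was thus on the level of MT 1 and MT 3 for the median mitotic kinesin, and MT 2 lay between them and the other Controls.

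Summed over the 11 genes, the mitotic kinesins gave 153.7, 158.7 and 122.7 FPKM in the Controls, against 107.6, 119.4 and 105.0 in MT. The other 23 members gave 273.7, 262.2 and 278.7 FPKM in the Controls, against 280.8, 271.4 and 290.8 in MT. The mitotic share of all summed KIF transcripts was 40.1, 41.7 and 35.7% in Control and 31.9, 34.6 and 30.4% in MT. The mitotic sum and share were lower in every MT library than in every Control library, whereas the sums of the other members overlapped. The gap was narrow, from 119.4 FPKM in MT 2 to 122.7 in Control 3, and from 34.6 to 35.7% for the share. Taken singly, 6 of the 11 mitotic kinesins had groups that overlapped.

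Of the cargo motors, KIF1A differed most. It was at 1.45, 1.12 and 1.54 FPKM in the Controls, against 4.42, 3.88 and 4.22 in MT, or 211 to 303 reads per Control library against 747 to 893 reads per MT library. The groups were far apart, and Control 3, at 1.54, was close to the other Controls. The ratio of the means was 3.05, and the log2 difference was 1.13 (1.18 without Control 3) with a pseudocount of 1, 1.55 with 0.1 and 1.62 on the read numbers, since a pseudocount damps the change of a low gene. KIF1B, its nearest relative, chosen after its values were seen, which carries mitochondria and synaptic vesicle precursors, was at 4.95, 4.89 and 3.33 FPKM in the Controls, against 4.31, 5.10 and 4.53 in MT, with a difference of 0.08 (SE 0.16) that was -0.07 (SE 0.09) without Control 3. KIF1C, which carries vesicles and is the highest kinesin of all at a mean of 61.1 FPKM, was at 50.5, 50.1 and 73.5 FPKM in the Controls, against 66.7, 55.3 and 70.6 in MT, a difference of 0.16 (SE 0.18) with 6 libraries and 0.34 (SE 0.11) without Control 3. KIF1A thus made up 2.54, 2.0 and 1.96% of the summed KIF1A, KIF1B and KIF1C in Control and 5.86, 6.04 and 5.32% in MT. In the Controls KIF1A was at 0.229 to 0.462 of the level of KIF1B, and in MT at 0.761 to 1.03.

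Of 8 markers of neurons, the cells in which KIF1A is best known, 6 were matched and 2 reached 0.5 FPKM, TUBB3 and RBFOX3. The summed level of the 6 was 23.6 to 46.6 FPKM in Control and 21.3 to 27.4 in MT, most of it TUBB3, which was at 43.3 FPKM in Control 3 and at 17.9 to 23.8 in the other libraries. MAP2, SYT1 and ELAVL3 were at or near 0, with means of 0.037, 0.0188 and 0.00399 FPKM. RBFOX3 was at 1.89, 1.88 and 2.67 FPKM in the Controls, against 3.05, 2.37 and 2.78 in MT. SYP was at 0.373, 0.249 and 0.55 FPKM in the Controls, against 0.518, 0.45 and 0.538 in MT. For RBFOX3 and SYP the groups overlapped with 6 libraries, and every MT library lay above Control 1 and 2. Their part in the difference of KIF1A was not tested.

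The other kinesin-3 cargo motors held closer to the same level in both groups. KIF13A, which moves endosomes and melanosomes, was at 5.71, 5.44 and 5.55 FPKM in the Controls, against 6.59, 6.32 and 6.50 in MT, with no overlap and a difference of 0.19 (SE 0.10), or 0.18 (SE 0.07) without Control 3. Its replicates were tight in both groups, averaging 5.56 ± 0.13 and 6.47 ± 0.14 (± SD, n = 3 each). KIF13B and KIF16B, an endosome motor, had differences of 0.05 (SE 0.13) and 0.12 (SE 0.13), or -0.02 and 0.01 without Control 3, and their groups overlapped in both cases.

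Kinesin-1, the main motor of transport toward the cell edge, was represented by 1 heavy chain. KIF5B was at 44.8, 47.1 and 23.8 FPKM in the Controls, against 32.6, 41.6 and 33.3 in MT, while the neuronal heavy chains had few reads, KIF5A 14, 25 and 14 in the Controls and 29, 32 and 17 in MT, and KIF5C 4, 0 and 0 and then 3, 1 and 1. Control 3 had the lowest KIF5B of the 6 libraries and the other Controls the highest, and the log2 difference was -0.05 (SE 0.26) with 6 libraries, -0.36 (SE 0.11) without Control 3, and 0.08 and 0.12 without Control 1 and Control 2. Among the light chains, which bind cargo and hold the motor inactive, KLC2 was at 23.5, 21.7 and 34.3 FPKM in the Controls, against 27.3, 23.0 and 27.4 in MT. KLC4 was at 13.7, 11.3 and 16.8 FPKM in the Controls, against 16.5, 15.5 and 16.2 in MT, and KLC1 at 7.14, 6.89 and 6.65 and at 7.47, 7.53 and 7.09. The light chain differences were -0.01 (SE 0.19), 0.21 (SE 0.15) and 0.08 (SE 0.10) for KLC2, KLC4 and KLC1, and all 3 had groups that overlapped with 6 libraries. Without Control 3 they were 0.19 (SE 0.10), 0.34 (SE 0.09) and 0.06 (SE 0.07), so that the sign of KLC2 turned, and the MT values of KLC4 then lay wholly above Control. The summed light chains were at 0.99, 0.847 and 2.43 times the level of KIF5B in Control and at 1.57, 1.11 and 1.52 times in MT, so that Control 3 lay above every MT library and the other Controls below every one.

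**Figure D4:**
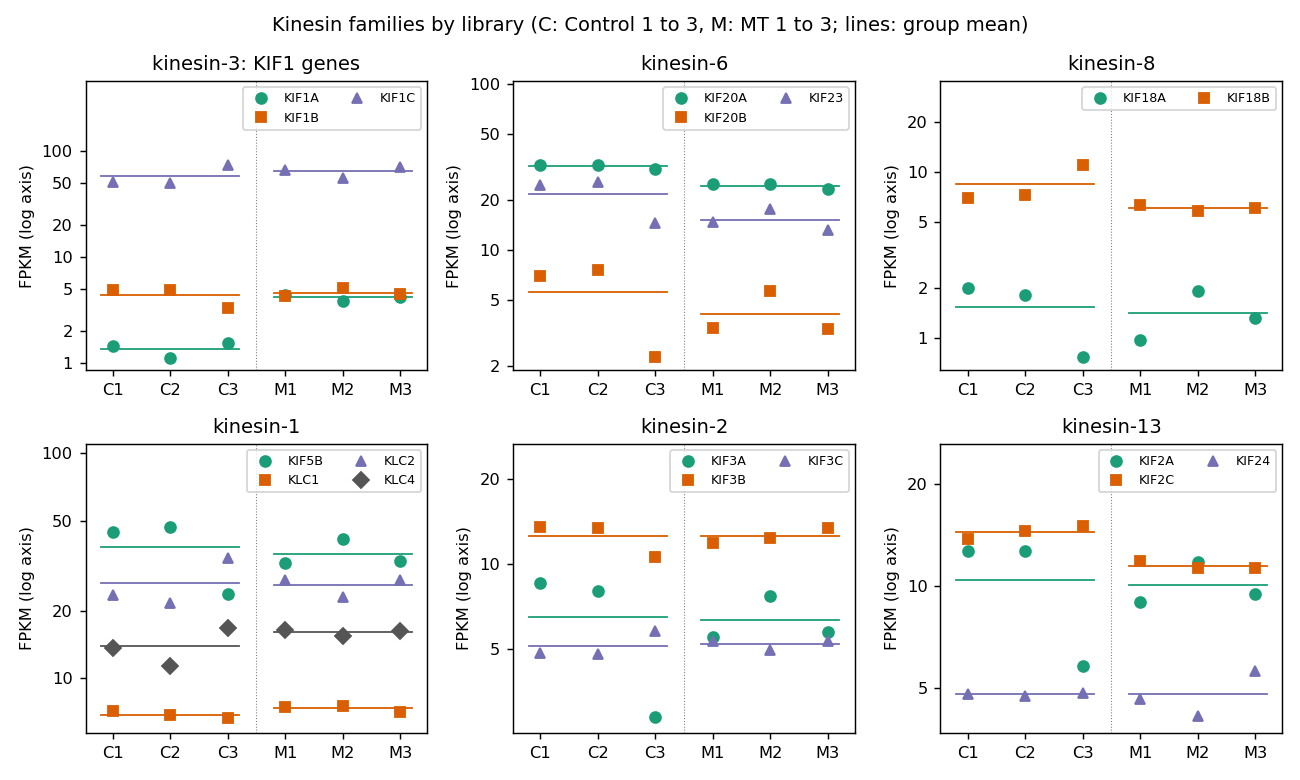
Each panel shows the FPKM (log axis) of some or all members of 1 kinesin family, with a line at each group mean. The libraries are Control 1 to 3 (C1 to C3) and MT 1 to 3 (M1 to M3). The kinesin-3 panel holds only KIF1A, KIF1B and KIF1C, and the kinesin-2 panel leaves out KIF17. KIF1A has means of 1.37 FPKM in Control and 4.17 in MT while KIF1B has 4.39 and 4.65. KIF20B, KIF23, KIF18A, KIF5B, KIF3A and KIF2A are low in Control 3 where KIF20A, KIF18B and KIF2C are not.

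Kinesin-2, which carries building material into the cilium, had its KIF3 subunits out of step in Control 3. KIF3A, chosen here after its values were seen, was at 8.62, 8.04 and 2.88 FPKM in the Controls, against 5.53, 7.74 and 5.77 in MT. Its partner KIF3B was at 13.6, 13.5 and 10.6 FPKM in the Controls, against 11.9, 12.4 and 13.4 in MT, and KIF3C, which can pair with KIF3A in place of KIF3B, at 4.85, 4.80 and 5.83 and at 5.35, 4.97 and 5.34. KIF3A was at 0.271 of the level of KIF3B in Control 3, and at 0.429 to 0.631 in the other 5 libraries. The differences of KIF3A, KIF3B and KIF3C with 6 libraries were 0.07 (SE 0.35), 0.01 (SE 0.13) and 0.02 (SE 0.12). Without Control 3 they were -0.36 (SE 0.13), -0.10 (SE 0.08) and 0.10 (SE 0.08), with the MT values wholly below Control for KIF3A and KIF3B and wholly above for KIF3C. The difference of KIF3A was 0.30 without Control 1 and 0.25 without Control 2, so its sign and size rest on single Controls. KIFAP3, which links the KIF3 motor to its load and was not counted as a member, had a difference of 0.16 (SE 0.22) that was -0.09 (SE 0.08) without Control 3. KIFBP, which binds kinesins and keeps them off the microtubule, had 0.14 (SE 0.23) and -0.14 (SE 0.07), and KIFC2, a kinesin-14, had 0.04 (SE 0.21) and 0.24 (SE 0.15).

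KIF7, a kinesin-4 at the ciliary tip that regulates the GLI factors, was at 8.70, 8.55 and 11.73 FPKM in the Controls, against 11.42, 9.69 and 11.30 in MT, a difference of 0.16 (SE 0.15) and of 0.29 (SE 0.09) without Control 3. Its relative KIF27, also chosen after its values were seen, was at 6.60, 6.19 and 2.98 FPKM in the Controls, against 4.62, 5.91 and 5.05 in MT. Its difference was 0.04 (SE 0.26) with 6 libraries and -0.26 (SE 0.11) without Control 3. KIF7 was highest and KIF27 lowest in Control 3. KIF24, a kinesin-13 that restrains cilium growth at the centriole, was at 4.80, 4.75 and 4.86 FPKM in the Controls, against 4.65, 4.15 and 5.63 in MT. Its groups overlapped and it averaged 4.80 ± 0.054 FPKM over the Controls and 4.81 ± 0.75 over MT (± SD, n = 3 each), with differences of -0.01 (SE 0.13) and, without Control 3, 0.00 (SE 0.12).

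Among the remaining members, KIF2A, the kinesin-13 that shortens microtubules at spindle poles and also outside mitosis, was counted with the other motors. It was at 12.7, 12.7 and 5.80 FPKM in the Controls, against 8.99, 11.8 and 9.50 in MT, a pattern close to that of KIF11, and its difference was 0.02 (SE 0.29) with 6 libraries and -0.31 (SE 0.11) without Control 3. It too was chosen after its values were seen. KIF12 was at 32.5, 25.5 and 39.5 FPKM in the Controls, against 32.1, 25.4 and 32.8 in MT, the third highest level of the 34 genes, with a difference of -0.09 (SE 0.18) that was 0.05 (SE 0.14) without Control 3. KIF26B, a kinesin-11, was at 4.70, 5.08 and 5.35 FPKM in the Controls, against 5.61, 5.85 and 5.40 in MT, with the groups apart by the gap from 5.35 to 5.40 and a difference of 0.13 (SE 0.11), or 0.17 (SE 0.08) without Control 3. KIF9, KIF17, KIF21A and KIF21B had differences from 0.04 to 0.09 and groups that overlapped with 6 libraries, and differences of 0.02, 0.14, -0.12 and 0.17 without Control 3.

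Lists of genes that work with these motors were set beside them. Of 30 partners of mitosis, 26 were tested, and all 26 had a lower mean in MT where 44.1% of all genes did. Their median difference with 6 libraries was -0.31, the same as for the mitotic kinesins. Without Control 3 it was -0.52, beside -0.40 for the mitotic kinesins. In 7 of them the MT values lay wholly below Control with 6 libraries, beside 4.92% of all genes, and without Control 3 17 were called lower, beside the 5.01% of all genes. AURKB, the kinase of the chromosomal passenger complex that KIF20A carries, averaged 14.8 ± 1.84 FPKM over the Controls and 9.92 ± 1.13 over the MT libraries, and RACGAP1, the partner of KIF23, at 25.3 ± 3.25 and 23.7 ± 1.09. SKA1, which helps kinetochores hold microtubules, stood at 4.96 ± 3.36 and 2.56 ± 1.17, and BUB1, a checkpoint kinase, at 12.6 ± 3.05 and 11 ± 1.1 (n = 3 each). The groups of AURKB were apart, with a difference of -0.53 (SE 0.14), or -0.44 (SE 0.10) without Control 3. Those of RACGAP1, SKA1 and BUB1 overlapped, and Control 3 was the lowest library for each, at 21.6, 1.08 and 9.07 FPKM. The differences of these genes were -0.08 (SE 0.13), -0.56 (SE 0.54) and -0.16 (SE 0.19) with 6 libraries. Without Control 3 they were -0.19 (SE 0.07), -1.20 (SE 0.23) and -0.36 (SE 0.09). CENPE, the kinesin-7 that carries chromosomes to the spindle middle and whose symbol kept it out of the members, was at 7.27, 7.45 and 1.54 FPKM in the Controls, against 3.31, 4.88 and 3.38 in MT. Its difference was -0.22 (SE 0.46) with 6 libraries and -0.80 (SE 0.14) without Control 3. It had the same form as KIF20B, with Control 3 lowest and MT 2 above the other MT libraries. KIFC1, a spindle motor that walks toward the minus end, was at 0.201 to 0.531 FPKM and was not tested.

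On the transport side, 16 of 24 motor adaptors were tested, 13 of them with a higher mean in MT and a median of 0.07, beside 6628 of the 11855 genes with a higher one. In the fit without Control 3, 1 adaptor was called, PLEKHM2 (0.42, SE 0.07), beside 3.09% of all genes called higher. PLEKHM2 joins kinesin-1 to lysosomes and averaged 21.5 ± 6.03 FPKM over the Controls and 24.4 ± 0.90 over the MT libraries, and MAPK8IP3, another kinesin-1 adaptor, stood at 3.41 ± 0.84 and 4.11 ± 0.45 (n = 3 each). TRAK2, which ties kinesin-1 to mitochondria, and PPFIA4, a liprin, had the lowest differences of the list, at -0.12 (SE 0.14) and -0.04 (SE 0.14), or -0.23 and 0.02 without Control 3. Dynein and dynactin genes, the motor that walks the other way, had 12 lower and 14 higher of 26 tested and a median of 0.02, with 1 called lower and 2 called higher without Control 3, beside 5.01% and 3.09% of all genes. Their extremes were HOOK2 (-0.27, or -0.31 without Control 3) and DYNLL1 (-0.20, or -0.57) on the lower side and ACTR1B (0.29, or 0.52) and DCTN2 (0.17, or 0.21) on the higher side. Intraflagellar transport genes, whose products kinesin-2 carries, had 20 higher of 22 tested and a median of 0.12, beside 6628 higher of all 11855. In the fit without Control 3, 14 were higher and 8 lower, and 2 were called higher, beside 3.09% of all genes. IFT140 averaged 6.82 ± 1.48 FPKM over the Controls and 9.12 ± 0.67 over the MT libraries (n = 3 each) with no overlap, IFT46 had a difference of 0.30 (SE 0.17), and IFT74 and IFT81 had -0.13 and -0.07. Control 3 moved these values, which were 0.15, -0.29 and -0.36 without it. All 11 tested tubulin genes, which encode the track itself, had a lower mean in MT, beside 44.1% of all genes, with a median of -0.30. Control 3 was the highest library for 9 of them, beside 3719 of all 11855 genes. Without Control 3, 8 were lower and 3 higher and the median was -0.05, and 0 were called in either fit. TUBB6 averaged 5.55 ± 1.81 FPKM over the Controls and 3.52 ± 0.51 over the MT libraries (n = 3 each). Its difference was -0.51 (SE 0.21) with 6 libraries and -0.29 (SE 0.11) without Control 3, its highest library at 7.64 FPKM. TUBB4B had a difference of -0.39 with 6 libraries and -0.04 without Control 3, and TUBB4A and TUBD1 had -0.01 each, or 0.21 and -0.19 without Control 3. Tubulin genes have near-identical copies that can share reads, so their values are uncertain.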

How the data were processed

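Total RNA of 6 libraries was sequenced, with the group and replicate of each read from its title. The authors deposited FPKM, 1 column per library, and the submitters' processing notes list HISAT2, Subread with featureCounts, and bcl2fastq, without versions, and the build Sscrofa11.1. The annotation release, the strand setting and any filter were thus not given in the sources used here. Since FPKM is tied to the total of each library, abundant transcripts move all others.

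Symbols were matched by Ensembl identifier for 13173 of the 20731 genes and for 10062 of the 11855 with a mean of at least 0.5 FPKM, the tested genes. Positions were matched by symbol to RefSeq for 32 of the 34 members. The MT and Control libraries were compared by limma 3.58.1 (R 4.3.3) after taking log2(FPKM + 1) (eBayes with a trend, two-sided, a single group term, threshold 0.05). This log2 scale understates the change of low genes. Library totals, gene lengths and read numbers were worked out from the steps of low values, and all 11855 tested genes came out whole within 0.01. Where the 6 read numbers of a gene share a divisor, its length and reads may be too small by that factor. Within groups, chi-square per degree of freedom between libraries was 6.09 to 140.3, where copies would give about 1. The fit was tested on simulated data. The noise there was independent between genes, unlike the departure of Control 3, so the simulation says nothing about that library. Tables and plots were made in Python 3.11.15 (pandas 2.3.3, matplotlib 3.10.9).

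Members, lists and tests were chosen with earlier results of these data known. Per-library values were given for KIF1A, the mitotic kinesins, the KIF5 and light chain genes and the 4 other members with the largest and the 4 with the smallest difference, and from each list the 2 extremes in each direction were named. Those of KIF1B, KIF2A, KIF3A and KIF27 were added after their values were seen. The alternatives changed the pseudocount, the filter, the scaling or the variance model, or used a replicate block, voom and leaving out each library, and, added after seeing the data, scalings and voom without Control 3.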

Additional observations from a re-analysis of the deposited data

How the results depend on the processing

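With 6 libraries 0 members and 0 genes were called under any pseudocount, filter, scaling, variance model or voom. The replicate block also called 0 members and 0 of 11855 genes, with 560 under an unadjusted p of 0.05, and left both medians at -0.31 and 0.05. The labels state no pairing, so the numbers were not taken to pair the libraries. The deviations of same-numbered libraries correlated at -0.38, 0.59 and 0.32, and Control 1 correlated best with MT 2 (0.47). With 3 libraries per group and Control 3 standing apart, these correlations cannot settle whether libraries were paired. Leaving out 1 library gave 0 to 7 called members and 0 to 960 called genes, with all calls in the fit without Control 3, medians of -0.40 to -0.25 for the mitotic kinesins and 0.05 to 0.10 for the others, and 5 to 10 mitotic and 3 to 15 other members with separate groups. The median of the others was 0.09 with a pseudocount of 0.1 and 0.10 with voom, and 1 other member had separate groups after quantile normalisation. Without Control 3, quantile normalisation called 7 members and 1026 genes (8.65%), the shift to a common median 7 and 1013 (8.54%), and voom 13 and 2361 (19.9%). In these fits 10 mitotic members were apart each time, and 15, 16 and 15 others. Of all tested genes, before further scaling, 11.3% had separate groups in either direction with 6 libraries and 54.6% without Control 3. Most genes thus had separate groups once Control 3 was left out. For the other fits that share was not worked out, so their counts of separate groups are only a description. The genes called lower and higher were 594 and 366 without further scaling, 520 and 506 after quantile normalisation and 490 and 523 after the shift, while the 7 members were the same. Of 11 mitotic kinesins 10 lay below 0 in all 18 alternatives, KIF18A being the exception, but some came near 0. Without Control 1 and without Control 2, KIF20B was at -0.07 and -0.02 and KIF11 at -0.14 and -0.12. KIF20A stayed between -0.42 and -0.35 throughout. Of the 23 others, 15 changed sign in some alternatives, counting KIF17, which only came down to 0.00. KIF17 and KIF18A had as few as 62 and 111 reads in a library, which limits their precision.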
